A study of Mus musculus with 16 samples.

Results

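Runx2, Sox9 and Pparg encode the transcription factors that direct bone, cartilage and fat formation from mesenchymal stem cells (MSCs), and their histone marks are described here in MSC lines without and with Dicer. Each gene was represented by 1 window of mm9 of fixed coordinates: chr17:44630000-44960000 for Runx2, chr11:112635000-112655000 for Sox9 and chr6:115365000-115445000 for Pparg. The coordinates use no peak, but the windows were chosen with earlier results of these data known. Of 289751 peaks in the 24 deposited lists, 209 overlapped these windows, 141 of them at Runx2, 10 at Sox9 and 58 at Pparg.

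The KO libraries came from immortalized murine MSC lines of genotype Dicer -/-, and the WT libraries from lines of genotype Dicer f/f, with floxed Dicer alleles. All were on the C57BL/6 strain, were grown in serum-containing Alpha-MEM without a differentiation agent named in the labels, and were described as monoclonal. The labels do not give the number of clones, so clone and genotype cannot be told apart. Antibodies against H3K4me3, H3K36me3 and H3K27me3 gave 2 libraries per genotype and mark, 12 in all. For each library the authors deposited peaks over whole-cell extract, which give all covered lengths below, and a second list of difference peaks. Difference peaks are read here as peaks over the other genotype, a control the labels do not state. Nothing shows that the replicates were separate cultures, so each p-value measures only the spread between these samples.

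RUNX2 drives osteoblast differentiation, SOX9 is required for chondrocytes and their matrix genes, and PPARgamma is the nuclear receptor needed for adipocytes. Dicer cuts microRNA precursors, and its loss removes most mature microRNAs. H3K4me3 marks the promoters of active and poised genes, H3K36me3 is laid over gene bodies during transcription, and H3K27me3 is the mark of Polycomb repressive complex 2. A promoter that carries H3K4me3 and H3K27me3 together is called bivalent or poised, a state often described for lineage regulators in stem cells.

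Since H3K4me3 in mammals gathers at promoters rich in CpG dinucleotides, the RefSeq promoters of the genes are shown with each CpG in capitals. They are the 250 bases before an annotated start in GRCm38.p6, another build than that of the peaks, so they were not placed among the mm9 peaks. Runx2 and Pparg matched the promoter table, and Sox9 did not.
Runx2, chr17:44814628-44814877, minus strand: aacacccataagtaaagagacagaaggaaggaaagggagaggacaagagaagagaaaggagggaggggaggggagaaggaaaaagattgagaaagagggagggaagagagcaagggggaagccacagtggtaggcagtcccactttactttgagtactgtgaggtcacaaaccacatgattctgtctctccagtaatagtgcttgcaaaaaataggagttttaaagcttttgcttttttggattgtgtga
Pparg, most upstream start, chr6:115360894-115361143, plus strand: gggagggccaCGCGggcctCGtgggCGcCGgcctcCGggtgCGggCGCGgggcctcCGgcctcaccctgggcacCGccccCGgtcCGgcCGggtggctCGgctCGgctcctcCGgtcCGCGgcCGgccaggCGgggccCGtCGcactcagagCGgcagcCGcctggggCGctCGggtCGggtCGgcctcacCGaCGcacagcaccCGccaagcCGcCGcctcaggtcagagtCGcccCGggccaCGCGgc
Pparg, most downstream start, chr6:115421816-115422065, plus strand: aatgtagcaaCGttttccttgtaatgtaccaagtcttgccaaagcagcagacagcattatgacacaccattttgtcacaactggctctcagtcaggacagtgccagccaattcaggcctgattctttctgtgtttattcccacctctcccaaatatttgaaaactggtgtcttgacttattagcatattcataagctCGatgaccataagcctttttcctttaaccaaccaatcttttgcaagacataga
The Runx2 sequence held 0 CpG, against a median of 6 over 32851 promoters cut in the same way. Only 1 Runx2 promoter was among these, so the count does not describe any other promoter of the gene. The most upstream Pparg sequence held 38 CpG, and 1.88% of all promoters held at least as many, whereas the most downstream one held 2. A Pparg start between them, not printed, had 12. The hexamer ACCACA, the core of the RUNX motif, was searched as ACCACA and TGTGGT, which covers both strands. It occurred 1 time in the Runx2 sequence and 0 times in the 3 Pparg sequences, and 14% of all promoters held it.

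No H3K27me3 peak overlapped any of the windows in any of the 4 libraries, so no base carried both H3K4me3 and H3K27me3 and no poised state was listed for Runx2, Sox9 or Pparg. The difference lists held no H3K27me3 peak there either. In the KO and WT libraries alike the covered length was 0 bp, and the test has nothing to compare (exact two-sided permutation p = 1, n = 2 per genotype). The nearest H3K27me3 peak to the Runx2 window lay 1472 and 88.7 kb away in KO replicates 1 and 2, and 1473 and 237 kb away in WT replicates 1 and 2. For Sox9 the distances were 6255 and 825 kb in KO against 698 and 694 kb in WT, and for Pparg they were 218 and 154 kb in KO against 216 and 197 kb in WT. Such an absence is common: of all windows of the same length tiled over the chromosomes, 52.4% of those of the Runx2 length, 89% of the Sox9 length and 76.2% of the Pparg length had no H3K27me3 peak in any library. These windows include those without H3K4me3, which were 34.5%, 83% and 61.2% of the windows of these lengths. The absence also rests on lists of very unequal length, with 703 and 17491 H3K27me3 peaks in KO against 2558 and 14932 in WT. Over the same chromosomes H3K27me3 overlapped 41 and 1240 H3K4me3 peaks in KO against 185 and 1980 in WT. These were 0.245% and 5.21% of the H3K4me3 peaks in KO against 1.45% and 10.8% in WT. Such overlaps were thus listed elsewhere, but so seldom in the replicate 1 libraries that their absence at 3 genes says little.

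**Figure D1:**
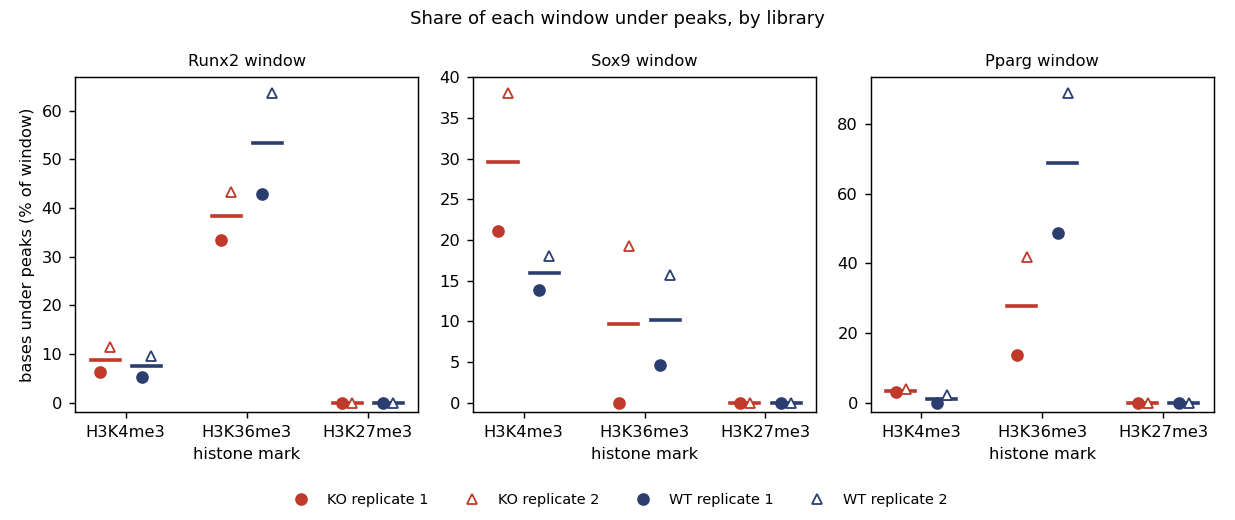
Bases under peaks as a percentage of each window, for the lists against whole-cell extract. Circles are replicate 1, triangles replicate 2 and horizontal lines the mean of the 2 libraries, with KO left of WT; every H3K27me3 point is at 0, and H3K36me3 at Pparg is the only H3K36me3 panel in which the genotypes do not overlap.

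At Runx2, the bone regulator, both genotypes carried broad H3K4me3 and a long H3K36me3 domain, and neither mark separated KO from WT. H3K4me3 covered 20800 and 37780 bp of the 330001-bp window in KO against 17478 and 31913 bp in WT. The means were 29290 ± 12007 bp in KO against 24695.5 ± 10207 bp in WT (SD, n = 2 each, exact two-sided permutation p = 0.667). The values overlapped, and replicate 2 exceeded replicate 1 by more than the genotypes differed. Relative to the length of the whole list, the window held 645 and 718 bp per Mb in KO against 698 and 724 bp per Mb in WT, again overlapping. The direction itself turns on 1 library: the difference was -3895.5 bp without KO replicate 2 and -2623 bp without WT replicate 1.

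The H3K4me3 peaks at Runx2 fell into 7 regions, made by merging the peaks of all 4 libraries, and 3 of these were listed in all 4. The widest was chr17:44940303-44956680, at the high-coordinate end of the window, the side on which the minus-strand RefSeq annotation starts the gene. It was covered over 9701 and 16321 bp in KO against 9067 and 16012 bp in WT. Only 0.0476% of all 25204 H3K4me3 regions were at least as wide. The second, chr17:44865605-44876610, was covered over 8779 and 10935 bp in KO against 7232 and 10244 bp in WT, and 0.139% of regions reached its width. Runx2 is known to have a distal and a proximal promoter, but no start site was placed on these mm9 coordinates. The remaining shared region, chr17:44912912-44916163, was covered over 2320 and 3043 bp in KO against 1179 and 3016 bp in WT. RefSeq places Supt3, a gene of the SAGA transcription complex, on the opposite strand over the 5′ part of Runx2, with 37680 bp in common. The marks near that end cannot be divided between Runx2 and Supt3, since histone marks carry no strand.

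The other 4 Runx2 regions were narrower than the 3 shared ones and listed in replicate 2 libraries only. Regions chr17:44728404-44730445 and chr17:44845615-44848331 were listed in KO replicate 2, over 2042 and 2717 bp, and in WT replicate 2, over 1523 and 1118 bp. Regions chr17:44735750-44737061 and chr17:44814137-44815546 were listed in KO replicate 2 alone. None of the 7 regions held a difference peak of any library. Of all H3K4me3 regions, 20.7% and 23.8% held a KO difference peak in replicates 1 and 2, and 7.19% and 5.07% a WT one. In the difference lists of both replicates, 10.8% held a KO peak and 1.12% a WT peak. A single H3K4me3 difference peak in the window, chr17:44641196-44642051 from WT replicate 2, overlapped no H3K4me3 peak of any library.

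H3K36me3 at Runx2 formed a domain with nearly the same lower edge in every library. The edge lay at position 44740233 and 44740118 in KO against 44740111 and 44739705 in WT, a spread of 528 bp, when peaks up to 50 kb apart were joined. The upper edge was at 44939434 and 44950855 in KO against 44950509 and 44951214 in WT. The domain spanned 199 and 211 kb in KO against 210 and 212 kb in WT and ended within or beside the widest H3K4me3 region. Below the lower edge, the rest of the window had H3K36me3 peaks in WT replicate 2 alone, at chr17:44632043-44634217 and chr17:44635934-44637026.

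Within that domain the covered length was 110072 and 142411 bp in KO against 141634 and 206949 bp in WT. Over the whole window it was 126241.5 ± 22867 bp in KO against 175925.5 ± 48496 bp in WT (SD, n = 2 each, exact two-sided permutation p = 0.667). WT replicate 2 stood apart from the other 3 libraries, with its domain in 7 long pieces covering 97.8% of the span. The others had 31 and 33 pieces in KO against 39 in WT replicate 1, covering 55.3%, 67.6% and 67.3% of their spans. That library also had the longest H3K36me3 list of all, 177 Mb against 87 and 110 Mb in KO against 108 Mb in WT replicate 1. The KO minus WT difference was -49684 bp with all libraries, -15392.5 bp without WT replicate 2 and -83975.5 bp without WT replicate 1. Per Mb of the list the window held 1265 and 1292 bp in KO against 1309 and 1190 bp in WT, so the lists gave Runx2 much the same share, and the mean difference then turned to 29.2 bp per Mb higher in KO. Every H3K36me3 base listed in either KO library was also listed in WT, and 72.2% of the WT bases were listed in KO. The WT bases, 210217 bp, were all listed in WT replicate 2, so this containment describes the library with the longest list. No share over the chromosomes is given for it. Windows of this length rarely carry so much H3K36me3: 0.213% had a KO mean as high and 0.0627% a WT mean as high. These shares are of all windows, 51.4% of which held no H3K36me3 peak in any library.

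**Figure D2:**
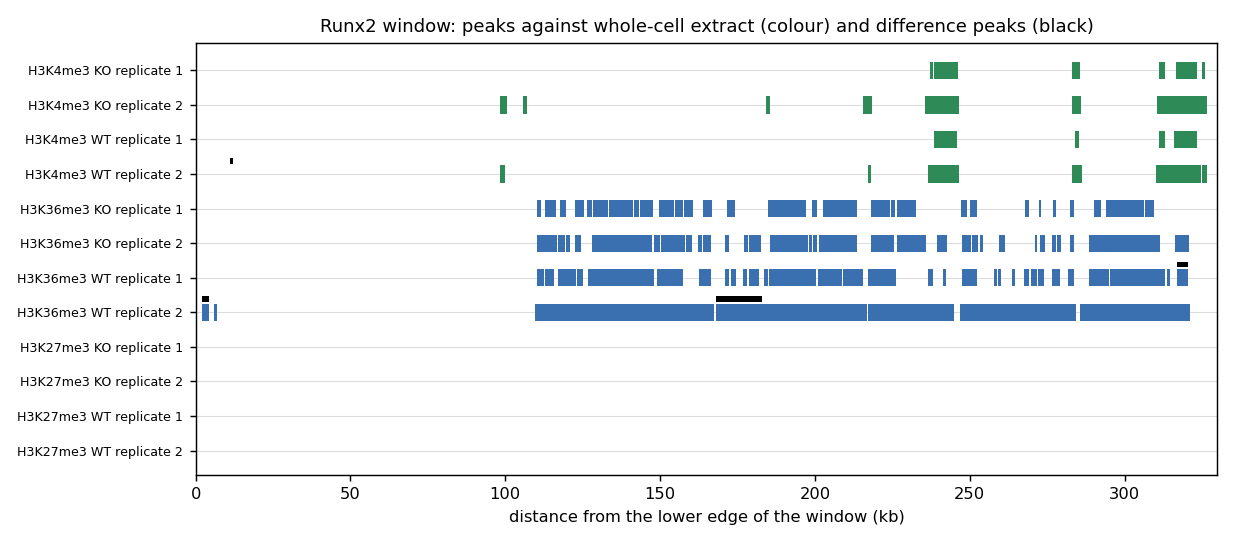
Peaks in the Runx2 window by mark, genotype and replicate, with distance from the lower window edge in kb on the x axis. Coloured bars are peaks against whole-cell extract and thin black bars difference peaks. Of the H3K4me3 regions, 3 are shared by all 4 libraries, as is the lower edge of H3K36me3, while the H3K27me3 rows are empty.

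Difference peaks for H3K36me3 at Runx2 came from WT only and from different places in the 2 replicates. WT replicate 1 had 1, chr17:44946848-44950509, and WT replicate 2 had 3, chr17:44632043-44634217, chr17:44797997-44805712 and chr17:44805730-44812771. The region chr17:44797997-44805712 was covered over 2731 and 1012 bp in KO against 2898 and 7716 bp in WT. Of the 9 H3K36me3 regions at Runx2, 0 were called in both replicates, against 1.24% of all H3K36me3 regions for WT and 0.668% for KO. In 10-kb bins, WT exceeded KO in both libraries in 9 of the 24 bins with any H3K36me3, while KO never exceeded WT in both. Over the chromosomes 30.5% of such bins had WT above KO and 2.41% had KO above WT.

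At Sox9, the cartilage regulator, H3K4me3 covered more of the 20001-bp window in both KO libraries than in either WT library. It covered 4213 and 7613 bp in KO against 2751 and 3598 bp in WT, so the genotypes did not overlap. The means were 5913 ± 2404 bp in KO against 3174.5 ± 599 bp in WT, a ratio of 1.86 (SD, n = 2 each, exact two-sided permutation p = 0.333, adjusted p = 1 over 9 comparisons). A p of 0.333 is the smallest that 2 against 2 libraries can give. Of the windows of this length with any H3K4me3, 13% had KO above WT in the same way. Relative to the list length the window held 131 and 145 bp per Mb in KO against 110 and 81.7 bp per Mb in WT, and 13.4% of windows showed that order.

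Most of the Sox9 difference in means, 2263 of 2738.5 bp, lay in a further H3K4me3 region, and 475.5 bp lay in the main one. The main one, chr11:112641916-112646336, was listed in every library over 2879 and 4421 bp in KO against 2751 and 3598 bp in WT, and each of these peaks had the deposited score 3100. Of the H3K4me3 lists, 40.9% and 43.9% in KO and 42.1% and 56.4% in WT scored at least as high. Covered lengths of the main region overlapped between genotypes. The further region, chr11:112646967-112650158, held peaks of 1334 and 3192 bp in KO alone. At 2 of the 11 H3K4me3 regions of the 3 windows, this one and one at Pparg, both KO libraries and no WT library had a peak, as did 6.25% of all regions. The scores at this Sox9 region were 415.11 in KO replicate 1 and 752.44 in KO replicate 2, and no difference peak fell on it. The region was thus listed in KO alone without being called different. The KO minus WT difference of the window, 2738.5 bp, was 1038.5 bp without KO replicate 2 and 4438.5 bp without KO replicate 1.

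H3K36me3 over Sox9 was short and uneven. It covered 0 and 3854 bp in KO against 915 and 3132 bp in WT, all within chr11:112644632-112648485, which lies between and partly under the 2 H3K4me3 regions. The means were 1927 ± 2725 bp in KO against 2023.5 ± 1568 bp in WT (SD, n = 2 each, exact two-sided permutation p = 1). The KO replicate 2 peak was also a difference peak, with a score of 391.35, while KO replicate 1 had no peak at all. In replicate 1 the 915 bp listed in WT lay within this KO-higher peak, and the rest of it was listed in neither genotype. In replicate 2, 2.31% of all H3K36me3 regions were KO-higher. The direction of the mean difference was not stable: it was 1830.5 bp without KO replicate 1 and -2023.5 bp without KO replicate 2. The bases under both H3K4me3 and H3K36me3 numbered 0 and 3224 in KO against 163 and 804 in WT. No H3K36me3 peak lay within 100 kb on either side of the window in any library.

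At Pparg, the fat regulator, both KO libraries had more H3K4me3 and less H3K36me3 inside the window than both WT libraries, and for H3K4me3 this order needed the weakest peaks. With scores of at least 160 alone, H3K4me3 covered 0 and 3078 bp in KO against 0 and 1750 bp in WT, which overlap, and the difference was 664 bp (exact two-sided permutation p = 1). With every listed peak, H3K4me3 covered 2358 and 3078 bp of the 80001-bp window in KO against 0 and 1750 bp in WT. The means were 2718 ± 509 bp in KO against 875 ± 1237 bp in WT (SD, n = 2 each, exact two-sided permutation p = 0.333, adjusted p = 1), with KO above WT in 13.3% of all such windows with H3K4me3. H3K36me3 covered 10996 and 33540 bp in KO against 39066 and 71258 bp in WT. Its means were 22268 ± 15941 bp in KO against 55162 ± 22763 bp in WT, a KO to WT ratio of 0.404 (SD, n = 2 each, exact two-sided permutation p = 0.333, adjusted p = 1). Windows with WT above KO in H3K36me3 made up 34.8% of all windows of this length with the mark.

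The H3K4me3 at Pparg lay in 2 narrow regions. The first, chr6:115412301-115413965, was listed over 899 and 1665 bp in KO and in neither WT library, and was a difference peak in both KO replicates, with scores of 146.4 and 186.94. It was the only one of the 11 H3K4me3 regions in the windows that was KO-higher in both replicates, against 10.8% of all H3K4me3 regions. A share of 1 in 11 is near that background. The call needed the deposited threshold, since 0 regions were left when only scores of at least 160 were used. The second, chr6:115442505-115444299, was listed over 1459 and 1413 bp in KO and over 0 and 1750 bp in WT, and was a difference peak in KO replicate 1 only. The windows held 2 such calls in replicate 1, against 20.7% of all regions, and 1 in replicate 2, against 23.8%. In KO replicate 1, 92.8% and 88.8% of the H3K4me3 list scored at least as high as the peaks in these regions, and in KO replicate 2 63.8% and 73.2% did. At the second region, 87.1% of the WT replicate 2 list did. Without WT replicate 1, which had no H3K4me3 peak in the window, the KO minus WT difference was 968 bp, and with all libraries it was 1843 bp. Within a library, the bases under both H3K4me3 and H3K36me3 numbered 0 in KO replicates 1 and 2 and 154 in WT replicate 2.

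The broad H3K4me3 nearest to Pparg lay outside the window and was shared by the genotypes. RefSeq gives Pparg a length of 129526 bp, of which a window of this size can hold at most 61.8%, and its most upstream and most downstream starts are 60922 bp apart. A region 48.5 kb below the window, chr6:115310019-115316523, carried H3K4me3 over 3480 and 6041 bp in KO against 5069 and 6505 bp in WT. Each library gave it a score of 3100, which 40.9% to 56.4% of the peaks in the H3K4me3 lists reached. It was wider than either region inside the window, and no difference peak fell on it. Pparg is known to be transcribed from separate promoters, of which PPARgamma2, the fat-specific form, uses a downstream one, but this region was not assigned to a start.

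**Figure D3:**
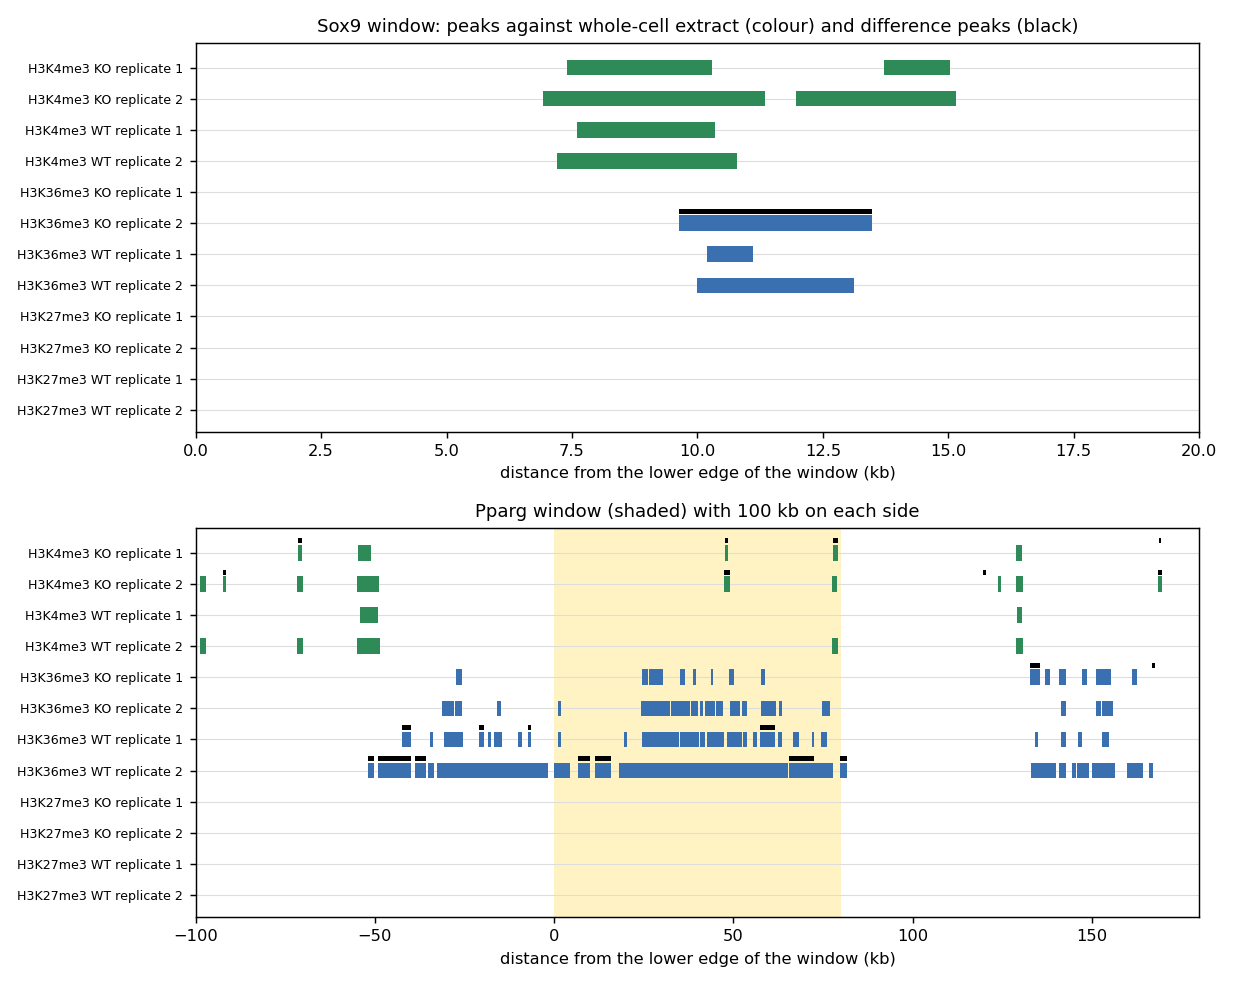
Peaks in the Sox9 window and in the Pparg window with 100 kb on each side, by mark, genotype and replicate, with distance from the lower window edge in kb on the x axis. Coloured bars are peaks against whole-cell extract and thin black bars difference peaks; the KO rows alone hold the further H3K4me3 peak at Sox9 and the H3K4me3 peak near the middle of the Pparg window, and H3K36me3 at Pparg is densest in WT replicate 2.

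H3K36me3 covered less in the KO libraries along most of the Pparg window. In 10-kb bins, both WT libraries exceeded both KO libraries in 7 of 8 bins, against 30.5% of bins over the chromosomes. The exception, 20 to 30 kb above the lower edge, was covered over 5272 and 5857 bp in KO against 5806 and 10000 bp in WT. From 60 kb upwards KO replicate 1 had no H3K36me3, while KO replicate 2 had 2797 and 2282 bp in the last 2 bins. WT had 4444 and 2316 bp in replicate 1 and 9664 and 7797 bp in replicate 2. Some bins thus counted as WT above KO on a small gap between KO replicate 2 and WT replicate 1. The highest bin had 2282 against 2316 bp in these libraries, and the lowest bin 871 against 941 bp. Adjoining bins are not independent of each other, since 1 peak can span several. As at Runx2, every H3K36me3 base listed in KO was listed in WT, but here only 47.4% of the WT bases were listed in KO. The WT bases, 71258 bp, were again all listed in WT replicate 2, so both values describe that library.

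The order of genotypes at Pparg remained when list length was taken into account. The window held 126 and 304 bp of H3K36me3 per Mb of the list in KO against 361 and 404 bp per Mb in WT, and 20.8% of windows of this length showed WT above KO by that measure. Without WT replicate 2, the library with the longest list, the difference in covered length was -16798 bp, and with all libraries it was -32894 bp. For H3K4me3 the window held 73.2 and 58.5 bp per Mb in KO against 0 and 39.7 bp per Mb in WT, an order seen in 15.7% of windows. These shares of the chromosomes show that such an order was frequent elsewhere as well.

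**Figure D4:**
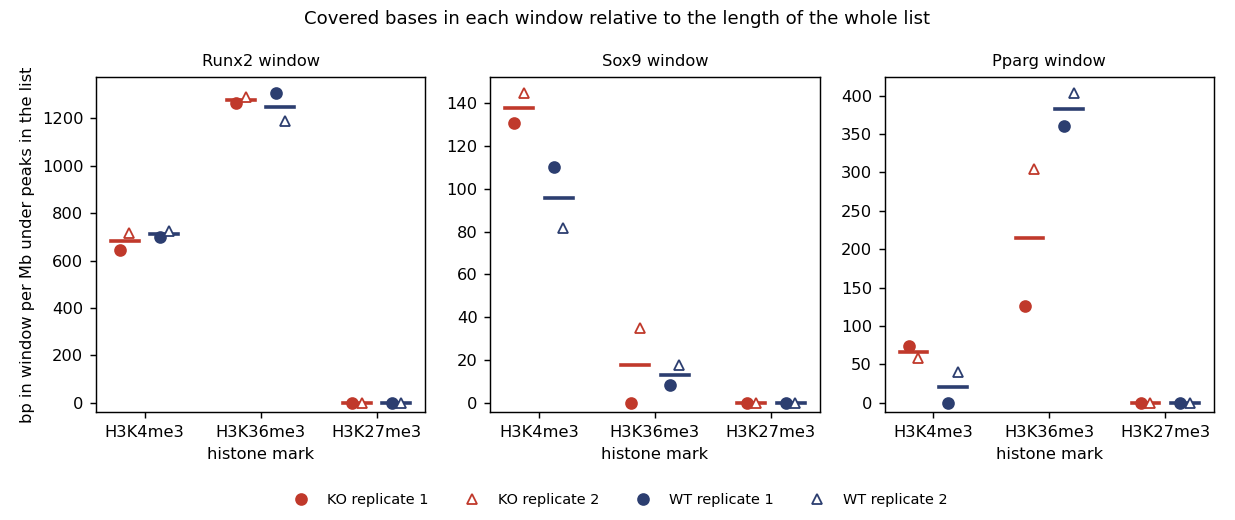
Covered bases in each window per Mb under peaks in the same list, with circles for replicate 1, triangles for replicate 2 and lines for the mean of the 2 libraries, KO left of WT. Runx2 values of KO and WT nearly coincide, whereas Sox9 H3K4me3 is higher in both KO libraries and Pparg H3K36me3 in both WT libraries.

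H3K36me3 difference peaks at Pparg were again from WT alone and did not recur at the same region. WT replicate 1 had chr6:115422444-115426714. WT replicate 2 had chr6:115371560-115374984, chr6:115376555-115380822, chr6:115430664-115437563 and chr6:115444852-115446628, the last of which reaches beyond the window. The region chr6:115430664-115437563 held no peak in KO, against 2077 and 6900 bp in WT. It was the only H3K36me3 region of the windows listed in both WT libraries and no KO library, against 7.18% of all regions. Over Runx2, Sox9 and Pparg together, 18 H3K36me3 regions were listed. Of these, 2 were WT-higher in replicate 1, against 5.76% of all regions, and 7 in replicate 2, against 8.42%. None was WT-higher in both.

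The 3 genes differed in how the marks sat together. Of the H3K4me3 bases at Runx2, 2.27% and 26.5% lay under H3K36me3 in KO against 36.2% and 69.2% in WT. At Sox9 the shares were 0% and 42.3% in KO against 5.93% and 22.3% in WT, and at Pparg they were 0% in both KO libraries and 8.8% in WT replicate 2, WT replicate 1 having no H3K4me3 there. At Runx2 the H3K36me3 length itself was greatest in WT replicate 2, whose part in these shares was not tested. No background over all windows is given for these shares, so no order of the genotypes is read from them. Of the windows of the Runx2 length with H3K36me3, 37.3% had more of that mark in both WT libraries than in both KO libraries. The Runx2 window itself did not show that order of lengths. For H3K4me3, 3 difference peaks in the windows were from KO and 1 from WT, against 12258 from KO and 3198 from WT over all chromosomes. For H3K36me3, 1 was from KO and 9 from WT, against 3071 from KO and 6806 from WT. Of these 14 peaks, 13 had the coordinates of a peak in their own library's list.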

How the data were processed

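Bowtie 0.12.7, MACS and the mm9 build are named in the submitters' processing notes. As deposited by the authors, the 24 BED lists were separate for each library and gave every peak a score of 80 or more, with no formula stated. They hold no reads, so depth is unknown, and depth and enrichment cannot be told apart in the length of a list. The 4 whole-cell extract samples were not analysed separately here, and 371 peaks on other contigs were left out.

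With Python 3.11.15 and numpy 2.4.6, peaks on chromosomes 1 to 19 and X were clipped to the 3 windows and merged, and covered bp compared by exact permutation tests, adjusted by Benjamini-Hochberg over 9 comparisons. Peaks of a mark that overlapped or touched in any library formed a region, called KO-higher or WT-higher when it held a difference peak. These directions rest on taking the unstated control of a difference list as the other genotype. Backgrounds run over all regions, and over tiles of each window's length. Interval code was tested on simulated data. No annotation of mm9 was used here, so other lineage genes and cell type markers were not analysed here. The windows, members and alternatives were chosen with earlier results of these data known. Every region in a window is counted, and those listed in both libraries of a genotype, holding a difference peak or widest for their mark are named, and other regions, those beyond the windows included, were named after their values were seen.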

Additional observations from a re-analysis of the deposited data

How the results depend on the processing

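Of 141 alternative values, 125 kept their direction or count, 8 reversed and 8 moved. Many of the 125 say little about stability, since nearly all H3K27me3 values and all poised values were 0. A replicate block also leaves the mean unchanged. All 8 reversals were among the 84 alternatives of covered length, and none was for H3K27me3. No exact p fell below 0.333, the smallest that 2 against 2 libraries can give. Per Mb of the list the KO minus WT difference turned at Runx2 to -30.0 bp for H3K4me3 and 29.2 bp for H3K36me3, and at Sox9 to 4.39 bp for H3K36me3, which was 361 bp with scores of at least 160. Leaving out 1 library gave -3895.5 to 13084.5 bp (H3K4me3, Runx2), 1038.5 to 4438.5 bp (H3K4me3, Sox9), 968 to 2718 bp (H3K4me3, Pparg), -83975.5 to -15392.5 bp (H3K36me3, Runx2), -2023.5 to 1830.5 bp (H3K36me3, Sox9), -48990 to -16798 bp (H3K36me3, Pparg) and 0 bp for H3K27me3. At Runx2 H3K4me3 turned without KO replicate 2 (-3895.5 bp) or WT replicate 1 (-2623 bp), and at Sox9 H3K36me3 turned without KO replicate 1 (1830.5 bp) or WT replicate 2 (1012 bp). Windows widened by 100 kb had 919.5 bp more H3K27me3 in KO at Runx2, 3 H3K4me3 regions KO-higher in both replicates instead of 1, and 1 H3K36me3 region WT-higher in both instead of 0. With scores of at least 160 the H3K4me3 count was 0. The genotypes no longer stood apart in H3K4me3 at Pparg with such scores (664 bp, exact p = 1) or in the widened window (3163.5 bp, exact p = 0.667). Single replicates called 1 to 2 KO-higher H3K4me3, 0 to 1 KO-higher H3K36me3 and 2 to 7 WT-higher H3K36me3 regions. The poised length was 0 bp in every alternative. The causes were not tested.

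With the replicate number as a block the differences were the same means, such as 2738.5 bp for H3K4me3 at Sox9 (exact sign-flip p = 0.5, the smallest 2 pairs can give), and no call changed. Deviations of same-numbered libraries correlated at 0.097, 0.005 and -0.510 for H3K4me3, H3K36me3 and H3K27me3. A correlation is taken around the mean, so these values cannot show a shift common to a whole library. For every mark and in both genotypes, replicate 2 covered more than replicate 1 in the lists against whole-cell extract. Whether the numbers pair the samples was thus left undecided, and the main tests stayed unpaired. A crossed pairing of H3K27me3, added after seeing the data, also gave 0 bp.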

Other observations

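Within 100 kb outside the windows, 2 of 10 H3K4me3 regions were KO-higher in both replicates, against 10.8% of all H3K4me3 regions. At chr17:44595587-44596599, below the Runx2 window, a peak was listed in KO replicate 2 alone, over 1013 bp. At chr6:115533423-115534547, above the Pparg window, a peak was likewise listed in KO replicate 2 alone, over 1125 bp. Within 100 kb of the Runx2 window the only H3K27me3 peak of any library was chr17:44539431-44541269 in KO replicate 2, which was also a difference peak. Near Sox9, KO replicate 2 alone had H3K4me3 peaks in that distance, at chr11:112619014-112619698 and chr11:112672280-112673340, and both were difference peaks. A further H3K4me3 difference peak of that library, chr11:112711718-112712345, overlapped no H3K4me3 peak of any library. In replicate 2, 13.6% of all H3K27me3 regions and 23.8% of all H3K4me3 regions were KO-higher.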
